A study of Mus musculus with 4 samples.

Results

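Ccr2, Ly6c2, Plac8, Chil3 and Lyz2 are 5 of the 21885 genes counted in spatial transcriptomes of mouse hearts before and after myocardial infarction (MI). They are used to follow monocytes that enter injured tissue and the macrophages they give rise to. They were chosen with their levels across the heart sections, and across spots with more or less cardiomyocyte RNA, already known. Levels along these lines are therefore given as a description, with no test, and tests are kept for distance from the tissue surface and for places inside the infarct roughly matched on cardiomyocyte RNA.

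After an infarct, classical monocytes leave the bone marrow through the chemokine receptor CCR2, follow its ligands CCL2 and CCL7 into the dead muscle, and carry Ly6C on their surface. Within days many of them lose Ly6C and become macrophages, which clear debris and shape the scar.

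The hearts came from mice of 8 to 12 weeks that carry a GFP reporter driven by the collagen gene Col1a1, which marks fibroblasts and is present in every group. An uninjured heart served as control, another was taken 3 days after MI (3 dpi), and 2 were taken at 5 dpi, labelled female and male. MI was made by tying off the left anterior descending coronary artery. A 10 µm frozen section of each heart was placed on a Visium slide, where each spot captures polyadenylated RNA from several cells, so that more cells of a type and more RNA per cell cannot be told apart.

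Y-linked genes gave 704 UMIs (unique molecular identifiers, each standing for a captured transcript) in the female-labelled 5 dpi section and 1 in the male-labelled section. The 5 dpi sections are therefore called by their labels only. Between 1146 and 1741 spots per section were kept, with 3742105 to 9540940 UMIs outside mitochondrial genes, and a level is given as CPM, the UMIs of a gene per 1000000 of those UMIs. The infarct zone (IZ) was defined as connected spots poor in 12 cardiomyocyte marker genes, and the remote zone (RZ) as spots at least 5 steps away from it on the array. The markers made up 0.672% to 2.05% of UMIs in the IZ and 8.18% to 9.81% in the RZ of the infarcted sections, against 10.1% in the control. There were 882 IZ spots at 3 dpi, 1061 in the female-labelled 5 dpi section and 684 in the male-labelled section. The control and 3 dpi groups hold 1 heart each, and the intervals given for levels cover counting error only.

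Ccr2, the receptor that lets monocytes leave the marrow, was counted 5 times in the control section, a level of 1.34 CPM (95% Poisson interval 0.43 to 3.12). It reached 50.3 CPM at 3 dpi, 62.0 CPM in the female-labelled 5 dpi section and 37.0 CPM in the male-labelled section. The infarcted sections all lay far above the control, and the lowest of them was 27.7 times higher. Within them, Ccr2 stood at 73.3, 73.2 and 57.9 CPM in the IZ and at 7.53, 22.7 and 4.03 CPM in the RZ, in the same order of sections. The IZ level was thus almost equal at 3 dpi and in the female-labelled section, and the IZ exceeded the RZ by 9.74, 3.23 and 14.4 times.

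Ly6c2 codes for a Ly6C protein on classical monocytes. It gave 4 UMIs in the control (1.07 CPM), 61.0 CPM at 3 dpi, 26.1 CPM in the female-labelled 5 dpi section and 28.3 CPM in the male-labelled section. Here the 3 dpi section was the highest and the 5 dpi sections were close to each other. The IZ level of Ly6c2 was 92.6 CPM at 3 dpi against 32.7 and 45.7 CPM at 5 dpi, which is 2.83 and 2.03 times lower. Among 11598 genes with enough UMIs, 2.1% were at least 2-fold lower in the IZ of both 5 dpi sections than at 3 dpi, and Ly6c2 was the only 1 of the 5 genes among them. None of the 5 was at least 2-fold higher in both, where the share of all genes was 2.11%.

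Ly6c2 has a close neighbour, Ly6c1, which endothelial cells express, and the promoters of the pair are shown because the infarcted sections were above the control for Ly6c2 and below it for Ly6c1. Ly6c1 was at 378 CPM in the control, 262 CPM at 3 dpi, 197 CPM in the female-labelled 5 dpi section and 272 CPM in the male-labelled section, so that every infarcted section was below the control. The last 500 bases of their transcripts share 132 of 692 windows of 91 bases, the length of the sequenced read, or 19.1% of those of Ly6c2. Some reads could therefore fit either gene. The 19.1% is a share of windows and not of reads, and the effect of such reads on the counts was not tested. The 150 bases before the transcript start, from RefSeq on GRCm38.p6, lie at chr15:75111972-75112121 on the minus strand for Ly6c2 and at chr15:75048838-75048987 on the minus strand for Ly6c1. Capitals mark GAGGAAGT, a site type bound by the myeloid factor PU.1, searched on both strands.
Ly6c2: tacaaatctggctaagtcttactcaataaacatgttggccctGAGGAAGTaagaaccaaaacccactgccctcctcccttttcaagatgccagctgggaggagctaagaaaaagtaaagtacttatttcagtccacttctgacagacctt
Ly6c1: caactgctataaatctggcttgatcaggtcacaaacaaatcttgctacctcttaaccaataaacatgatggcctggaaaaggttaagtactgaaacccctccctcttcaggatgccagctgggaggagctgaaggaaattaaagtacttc
Over the 250 bases before the start the pair matched at 168 of 229 aligned positions, or 73.4%. The motif lies 108 bases before the start in Ly6c2 and does not occur in this Ly6c1 window, while 1.63% of 32851 RefSeq promoter windows of the same length hold it. Both genes have a second RefSeq entry with another start, whose window does hold the motif for Ly6c1 as well, so the contrast depends on the start used. A match is a description of letters and not a measured binding site.

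Plac8, a small protein of myeloid cells that is high in classical monocytes, gave 3 UMIs in the control (0.80 CPM, 95% interval 0.17 to 2.34). It stood at 95.5 CPM at 3 dpi, 124 CPM in the female-labelled 5 dpi section and 78.5 CPM in the male-labelled section. In the IZ the sections were close to each other, at 140, 151 and 125 CPM, and in the RZ they were at 18.1, 21.5 and 13.3 CPM. The ratio of IZ to RZ was between 7.04 and 9.44, a narrower range than that of Ccr2.

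Chil3, a secreted chitinase-like protein of monocytes and of macrophages under type 2 signals, also gave 3 UMIs in the control. Its levels were 52.4 CPM at 3 dpi, 63.6 CPM in the female-labelled 5 dpi section and 24.1 CPM in the male-labelled section. The section labelled male stayed below the other infarcted sections in the IZ too, with 39.3 CPM against 79.3 and 77.1 CPM. In the RZ, Chil3 was at 6.02, 13.1 and 2.01 CPM. Chil4, the neighbour most like it, had 0 UMIs in every section, although 7.86% of the 91-base windows at the end of Chil3 also occur in Chil4.

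Lyz2 codes for lysozyme M, which monocytes, macrophages and neutrophils all make, and unlike the other genes it was well counted without injury. The control held 1404 Lyz2 UMIs, or 375 CPM, and 58.9% of its spots had at least 1. Levels rose to 2414 CPM at 3 dpi, 4688 CPM in the female-labelled 5 dpi section and 3153 CPM in the male-labelled section, with 3484, 5682 and 4976 CPM in the IZ. In the RZ it was at 553, 706 and 557 CPM, each above the control. Lyz1, the neighbouring intestinal lysozyme, was at 0.53 CPM in the control. The promoters of this pair are shown because they are alike while the counts are not, with Lyz2 at chr10:117282273-117282422 and Lyz1 at chr10:117292869-117293018, both on the minus strand of GRCm38.p6.
Lyz2: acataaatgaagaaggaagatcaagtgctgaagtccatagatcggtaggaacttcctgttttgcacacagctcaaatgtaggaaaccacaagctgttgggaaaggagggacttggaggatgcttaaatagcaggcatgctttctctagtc
Lyz1: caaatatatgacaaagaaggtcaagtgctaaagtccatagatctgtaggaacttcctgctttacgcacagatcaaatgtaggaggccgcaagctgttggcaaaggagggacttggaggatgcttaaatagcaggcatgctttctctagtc
They matched at 200 of 251 aligned positions of the 250 bases before the start, or 79.7%. Neither window holds GAGGAAGT, the C/EBP motif TTGCNNAA (5.46% of all windows) or the hypoxia response motif ACGTG (11.2%). In the windows of Ccr2, Chil3 and the first entry of Plac8 these letters do not occur either, while a second entry of Plac8 with another start holds the C/EBP motif 12 bases before it and ACGTG farther upstream.

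**Figure D1:**
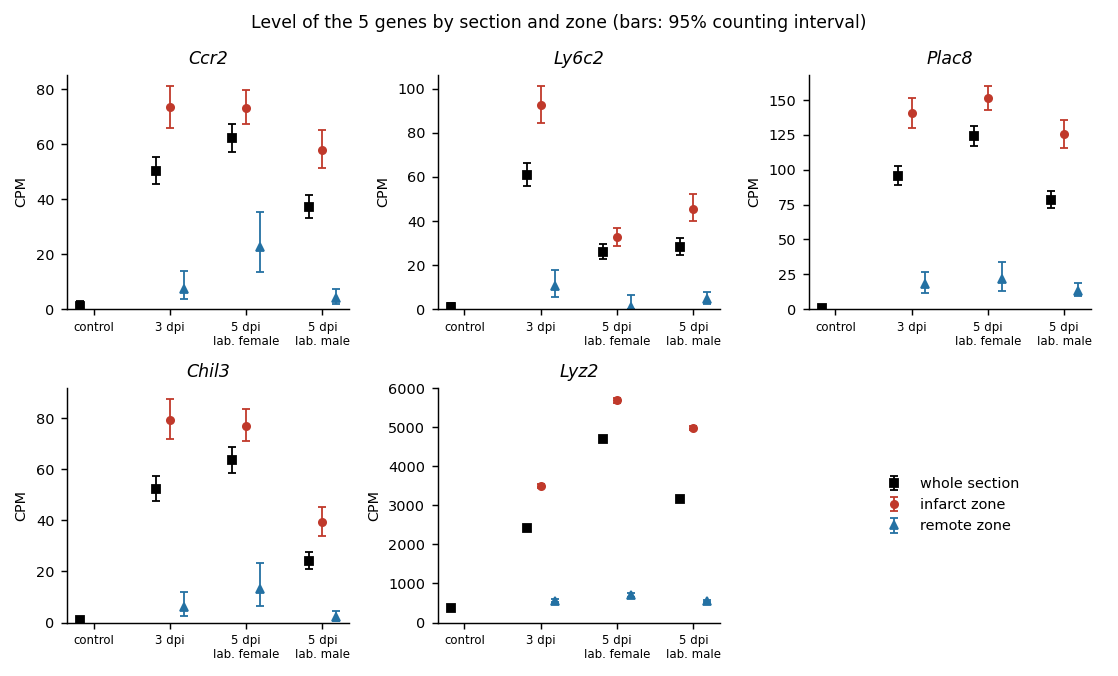
Level of each gene in CPM in the whole section (squares), the infarct zone (circles) and the remote zone (triangles) of 4 sections, with 95% Poisson intervals for counting error as bars. Every gene has its lowest whole-section level in the control, and Ly6c2 is highest at 3 dpi, with 92.6 CPM in the infarct zone.

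All 5 genes were at least 2-fold higher in each infarcted section than in the control, as were 26% of the 12101 genes with enough UMIs, where 4.43% were at least 2-fold lower. All 5 were at least 2-fold higher in the IZ than in the RZ of all 3 infarcted sections, as were 14.1% of 11657 genes, with 6.3% lower. These values chose the genes, so the counts describe the choice. The 11 other monocyte markers, among them F10, F13a1 and Ms4a4c, summed to 52.6 CPM in the control and to 518, 878 and 527 CPM in the infarcted sections, and 8 general macrophage markers went from 671 to 3915, 6716 and 5541 CPM.

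The levels also followed the share of cardiomyocyte markers in a spot, taken relative to the 90th percentile (P90) of its section. From spots under 0.1 of the P90 to those between 0.1 and 0.25, Ccr2 went from 102 to 78.7 CPM at 3 dpi, from 86.6 to 41.4 CPM in the female-labelled section and from 68.4 to 45.2 CPM in the male-labelled section. Ly6c2 went over the same step from 162 to 68.0 CPM, from 40.5 to 13.2 CPM and from 59.0 to 21.0 CPM. Both genes were highest in the poorest spots of all 3 sections, and the Ly6c2 step was the steeper in each, a difference that was not tested. Chil3 went from 123 to 87.9 CPM, from 98.02 to 23.5 CPM and from 53.0 to 12.1 CPM. In spots at 0.75 of the P90 or more, Ccr2 was down to 10.8, 16.6 and 4.37 CPM and Ly6c2 to 11.4, 0.88 and 3.50 CPM. The steps of Plac8 and Lyz2 ran the same way, with Lyz2 going from 5522 to 2946 CPM at 3 dpi.

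**Figure D2:**
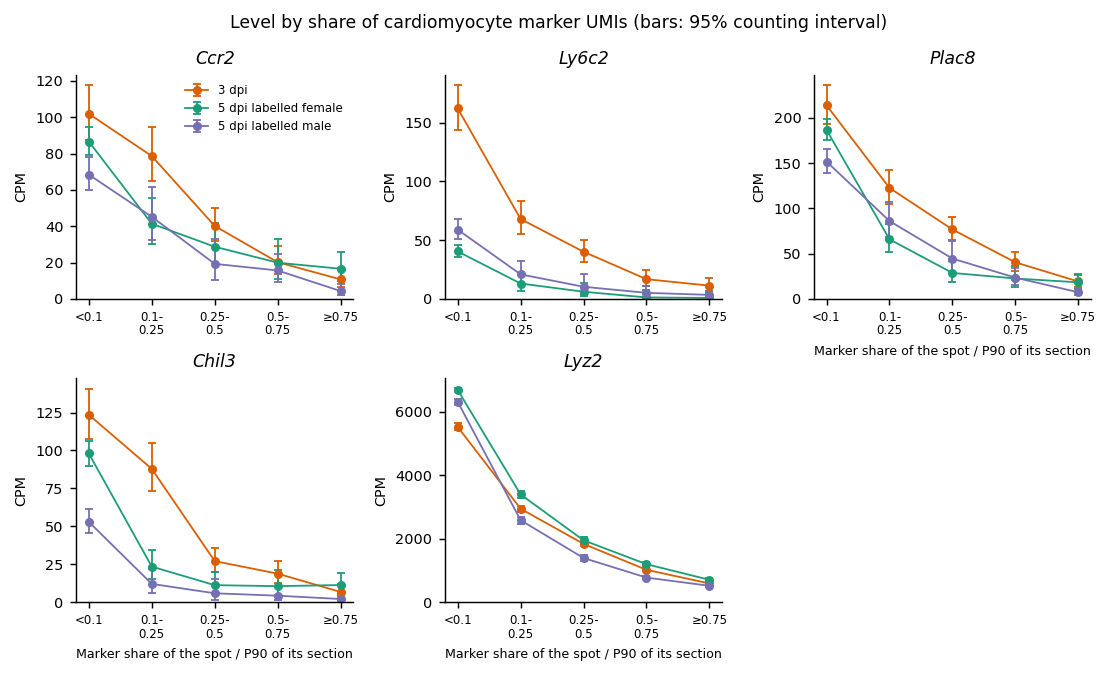
Level of each gene in CPM in spots grouped by their share of cardiomyocyte marker UMIs over the 90th percentile of their section, for the 3 infarcted sections, with 95% counting intervals. Every gene is highest in spots under 0.1, and Ly6c2 at 3 dpi drops from 162 to 68.0 CPM in the next class.

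To compare the genes with the amount of myeloid RNA, UMIs were set against those of Lyz2 in the IZ. For every 1000 Lyz2 UMIs there were 26.6 of Ly6c2 at 3 dpi (95% Poisson interval 24.2 to 29.1), 5.75 in the female-labelled 5 dpi section (5.06 to 6.52) and 9.18 in the male-labelled section (8.01 to 10.5). Ccr2 gave 21.1, 12.9 and 11.6 in the same order. Chil3 gave 22.8, 13.6 and 7.89, and Plac8 gave 40.3, 26.6 and 25.2. Each gene had its highest ratio at 3 dpi, with Ly6c2 the most separated from 5 dpi and Plac8 the least. Against the 8 macrophage markers in place of Lyz2, the 3 dpi ratio was again the highest for each. For Ly6c2 it was 17.5 against 4.12 and 5.37. The totals set below these ratios were themselves lower in the IZ at 3 dpi. Lyz2 was at 3484 CPM against 5682 and 4976 CPM at 5 dpi, and the 8 markers at 5304 against 7939 and 8499 CPM. In CPM, Ccr2 (73.3, 73.2 and 57.9) and Plac8 (140, 151 and 125) differed little between the IZs. Their higher ratios at 3 dpi are therefore not higher levels.

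The share of spots with a UMI was then taken after spots had been thinned to 1350 UMIs outside mitochondrial genes, which makes them equally deep. Shallower spots were left out, namely 63 of 882 IZ spots at 3 dpi, 45 of 1061 and 2 of 684 at 5 dpi, and 88 of 1146 spots of the control. Ly6c2 was in 11.6% of thinned IZ spots at 3 dpi (95% exact binomial interval 9.5 to 14.0), 4.63% in the female-labelled 5 dpi section (3.42 to 6.1) and 4.25% in the male-labelled section (2.87 to 6.05). Without thinning, and over all IZ spots, the shares were 28.8%, 15.2% and 15.8%. Ccr2 was in 9.77%, 8.07% and 7.33% of thinned IZ spots, Plac8 in 17.0%, 16.8% and 15.5% and Chil3 in 9.16%, 10.3% and 3.67%. In the thinned control section Ccr2 was in 0 of 1058 spots, where 3 counts would be 0.284% and the exact upper limit is 0.348%, and in 0.436% of all spots without thinning. Ly6c2 was in 1 of the thinned control spots. So the 3 dpi section stood apart for Ly6c2 and the male-labelled section for Chil3, while the Plac8 shares lay within each other's intervals.

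Within the IZ, Ly6c2 was far from evenly spread. Its spot-to-spot variation beyond counting error, as a coefficient of variation, was 1.48 at 3 dpi, 1.93 in the female-labelled 5 dpi section and 2.79 in the male-labelled section. Of the genes with at least 50 CPM in the IZ, 21 of 3072, 13 of 2977 and 2 of 2953 varied more, although Ly6c2 itself was under that limit at 5 dpi, with 32.7 and 45.7 CPM. The 5% of IZ spots with the most Ly6c2 UMIs held 44.6%, 56.1% and 64.3% of them, and a spot held up to 11, 9 and 13. Ccr2 was more even, with a variation of 0.64, 0.73 and 0.66, 30.4% to 32.2% of its UMIs in its top spots and at most 7 in a spot. Plac8 lay between them in all 3 sections, at 1.10, 0.96 and 0.93, and Chil3 did too, at 0.82, 1.02 and 1.11. Lyz2 varied by 0.88, 0.62 and 0.72.

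**Figure D3:**
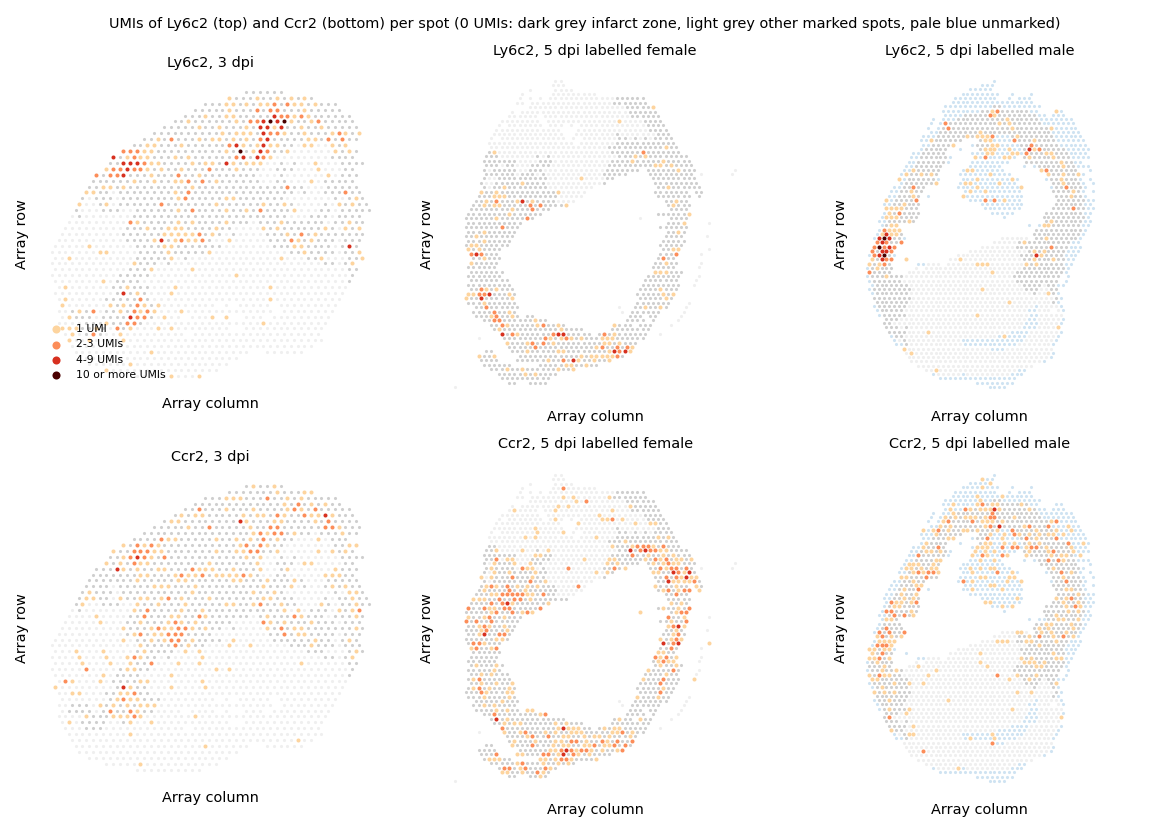
UMIs of Ly6c2 (top row) and Ccr2 (bottom row) in every spot of the 3 infarcted sections, placed by array column and row, with deeper colour for more UMIs and grey or pale blue for spots with 0. Ly6c2 reaches 13 UMIs in a spot of the male-labelled section, and 5% of the infarct zone spots hold 44.6% to 64.3% of its UMIs, whereas a spot holds at most 7 of Ccr2.

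Inside the IZ, spots were set apart by depth, with the core more than 4 steps from the nearest spot outside the zone and the rim 1 to 2 steps from it. The border of the zone was drawn on the cardiomyocyte share that the choice of genes used, and the core held less of it than the rim, with marker shares of 1.25%, 0.339% and 0.553% against 3.13%, 2.35% and 2.94%. The plain values of core and rim are therefore a description too. Chil3 was at 105 CPM in the core against 53.7 CPM in the rim at 3 dpi, at 91.9 against 14.5 CPM in the female-labelled 5 dpi section and at 43.5 against 5.92 CPM in the male-labelled section, a log2 fold change of 1.51 ± 0.27 (SE) in a fit by edgeR with the section as a block. Ly6c2 was at 117, 38.5 and 52.6 CPM against 57.2, 5.44 and 5.92 CPM, or 1.44 ± 0.27. All 5 genes had their smallest ratio of core to rim in the 3 dpi section.

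Plac8 was at 168, 186 and 138 CPM in the core against 107, 20.8 and 45.4 CPM in the rim, or 1.44 ± 0.31. Lyz2 was at 4420, 5975 and 5461 CPM against 2539, 2992 and 1837 CPM, or 0.97 ± 0.14. Ccr2, at 74.7, 80.3 and 63.1 CPM against 56.2, 33.5 and 29.6 CPM, had the smallest change, 0.69 ± 0.19. These sizes depended on the sections used. Without the 3 dpi section they were 2.36 for Plac8, 2.80 for Ly6c2, 2.57 for Chil3 and 1.07 for Ccr2. Without the female-labelled section they were 0.81 for Plac8 and 0.46 for Ccr2. Those of Ly6c2 and Chil3 rest on few UMIs in the rim at 5 dpi, at 5.44 and 5.92 CPM and at 14.5 and 5.92 CPM. The rim held 1103671 and 506860 UMIs outside mitochondrial genes there. All 5 genes were past an adjusted p of 0.05 in this fit, beside 6.93% of 10856 genes that were higher, 11.4% that were lower and 18.3% in either direction, and nothing is read from the count because it follows the choice.

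The first test compared core and rim spots drawn in equal numbers from each class of cardiomyocyte share, which left 151, 75 and 56 spots a class and 7419 genes. None of the 5 passed by edgeR (quasi-likelihood, with p-values adjusted by Benjamini-Hochberg), where 0.364% of genes were higher and 0.741% lower. Their log2 fold changes were 0.56 ± 0.21 for Plac8, 0.30 ± 0.28 for Ly6c2, -0.08 ± 0.27 for Chil3, -0.09 ± 0.24 for Ccr2 and -0.22 ± 0.09 for Lyz2. Plac8 and Lyz2 were the 2 with an unadjusted p under 0.05, and Ccr2 and Chil3 had no direction beyond their error. DESeq2 was not run on the matched spots.

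The matched classes differed in more than their steps inside the zone. At 5 dpi the matched core spots lay at the surface, with a median of 0 steps from it against 3 in the rim in both sections, and were deeper, with medians of 8359 and 8438.5 UMIs outside mitochondrial genes against 6539 and 5086.5. At 3 dpi they were shallower, with 4290 against 6345 UMIs, at 7 and 8 steps from the surface. The cardiomyocyte share was closer than before but not equal, at 2.11%, 1.68% and 1.99% in the core against 2.07%, 1.62% and 2.30% in the rim, and Ckm, Mb and Myl3 of the 12 markers were still lower in the core. Of 7 fibroblast markers 4 were lower (Col1a1, Col3a1, Dcn and Postn), and of 6 endothelial markers 2 were (Fabp4 and Ly6c1). Of the 8 macrophage markers C1qc was lower, and the median log2 fold change of that list was -0.17. The part of these differences in the values of the 5 genes was not tested.

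Other genes of the same themes were read from lists, first in the plain fit of core against rim, where 6.93% of genes were higher. Of 11 other monocyte markers, 10 were higher in the core, with a median log2 fold change of 1.14 against -0.00 over all genes tested, and F10 (2.43) and Thbs1 (0.98) were among them. Of the 4 CCR2 ligands, Ccl7 (2.21), Ccl2 (1.81) and Ccl8 (0.58) were higher, and Ccl12 had 0.46 and did not pass. Of 11 genes of lipid-handling and phagocytic macrophages 10 were higher, led by Hmox1, heme oxygenase 1, with 2.73, and Spp1, osteopontin, with 2.68. Of 7 genes of alternative activation 4 were higher, namely Ccl24 (2.90), a chemokine for eosinophils, Clec10a (1.72), Il4ra (0.96) and Mrc1 (0.63), and Tgm2 was lower (-1.11). Of 10 hypoxia and glycolysis genes 6 were lower, among them Vegfa and Pgk1. In the matched spots, most of these calls were lost. Of 9 monocyte markers that could still be tested, 1 was higher (Thbs1), and of 11 lipid-handling genes 4 were (Hmox1, Spp1, Fabp5 and Lgals3). Of the 4 CCR2 ligands Ccl8 was now lower, and in the lists of alternative activation (4 tested, 0 at an unadjusted p under 0.05) and hypoxia (8 tested, 2 at that level) none passed by edgeR.

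Neutrophil markers moved with depth as well. Of 6 tested in the plain fit, 4 were higher in the core, with S100a8 at 2.16, and of 2 that could be tested in matched spots S100a8 was higher. In CPM, the summed level of the 8 on the list went from 115, 78.8 and 80.9 CPM in spots 1 to 2 steps inside to 972, 368 and 306 CPM in spots 9 or more steps inside. Ly6g, the defining neutrophil marker, had 0 UMIs at 3 dpi and in the male-labelled section. The 12 cardiomyocyte markers define the zone, so their fall toward the core is fixed by construction. The part of these cells in the levels of the 5 genes was not tested. The largest falls among well-expressed genes were those of the muscle genes Acta1 (-3.67), Ckm (-3.27) and Ckmt2 (-3.12), of which Ckm is such a marker.

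The genes differed in where along the way in they were highest. Ly6c2 at 3 dpi was at 57.2 CPM in spots 1 to 2 steps inside, 115 CPM at 3 to 4 steps, 142 CPM at 5 to 8 steps and 63.8 CPM at 9 steps or more. The counting intervals of the last 2 of these classes did not overlap. In the female-labelled 5 dpi section these levels were 5.44, 27.4, 22.9 and 42.0 CPM, and in the male-labelled section 5.92, 25.3, 70.9 and 49.5 CPM. Ccr2 at 3 dpi was highest 3 to 4 steps inside, at 100 CPM, and was at 68.8 CPM in the deepest spots, with counting intervals that overlapped. In the male-labelled section Ccr2 was instead highest in the deepest spots, at 64.8 CPM against 29.6 CPM at 1 to 2 steps.

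Plac8 in the female-labelled section climbed with every class, from 20.8 to 66.9, 121 and 200.1 CPM. Chil3 did the same there, from 14.5 to 51.7, 59.2 and 99.2 CPM. At 3 dpi both were highest at 5 to 8 steps, Plac8 with 186 CPM and Chil3 with 112 CPM. Lyz2 at 3 dpi was at 2539, 3626, 3697 and 5922 CPM, so that it was highest in the deepest spots, where Ly6c2 was lower than at 5 to 8 steps. Other markers also differed between these 2 classes at 3 dpi, with hemoglobin genes at 2581 and 11356 CPM, the 7 fibroblast markers at 13038 and 7674 CPM and the 8 neutrophil markers at 323 and 972 CPM, and their part in the levels was not tested. In the female-labelled section Lyz2 was highest at 3 to 4 steps, with 7621 CPM, and was at 5756 CPM in the deepest spots.

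The second test asked whether the genes depend on the edge of the tissue. IZ spots with fewer than 6 kept neighbours were taken as the surface, of the outer wall or of the cavity, and spots at least 3 steps from any such spot as inner IZ. In the male-labelled section the marked tissue borders on 560 spots with RNA that the authors did not mark, so its surface is the edge of the marked spots. The cardiomyocyte share was 1.90%, 0.804% and 1.11% at the surface against 2.14%, 0.901% and 1.36% inside, a smaller gap than between core and rim. Surface spots lay deeper inside the zone than inner spots, with medians of 6, 27 and 20 steps against 3, 5 and 3, so that this comparison overlaps with that of core and rim. None of the 5 genes passed edgeR's quasi-likelihood test over 10618 genes, or DESeq2, where 0.414% of all genes were higher by edgeR, 0.217% lower and 0.631% either. At an unadjusted p under 0.05, 1 of the 5 stood out by edgeR, Plac8.

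Plac8 was at 210 CPM at the surface against 130 CPM inside at 3 dpi, at 144.3 against 123 CPM in the female-labelled 5 dpi section and at 140 against 96.5 CPM in the male-labelled section. The surface was the higher in 3 of 3 sections, by a log2 fold change of 0.38 ± 0.14 (adjusted p by edgeR 0.40). Ly6c2 was at 115, 26.9 and 37.9 CPM against 90.5, 24.6 and 22.1 CPM, or 0.30 ± 0.20. Ccr2 was at 65.8, 57.9 and 56.9 CPM against 74.6, 80.3 and 37.2 CPM, or -0.18 ± 0.18. Chil3 (0.02 ± 0.18) and Lyz2 (0.05 ± 0.13) were the closest to 0, and the adjusted p by edgeR of the 5 genes ran from 0.40 to 0.997. The direction differed between sections for Ccr2, Chil3 and Lyz2. Matching the classes on cardiomyocyte share gave 0.33 for Plac8 and 0.43 for Ly6c2, and none of the 5 passed by edgeR (0 of 5 at an unadjusted p under 0.05), where 0.153% of 8480 genes were higher and 0.0825% lower.

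In steps from the surface, Ly6c2 in the female-labelled section was at 26.9, 35.2, 50.6 and 32.9 CPM at 0, 1, 2 and 3 to 4 steps, and at 5.74 CPM at 5 or more steps. The section labelled male went from 37.9, 68.1 and 42.7 CPM at 0 to 2 steps to 24.7 and 12.7 CPM. At 3 dpi the levels lay between 83.8 and 116 CPM. The innermost spots were thus the lowest at 5 dpi and not at 3 dpi. Plac8 was lowest in the innermost spots of all 3 sections, at 116, 50.2 and 69.8 CPM, against 210, 144.3 and 140 CPM in the surface spots. At 5 dpi the innermost spots also had more cardiomyocyte marker RNA, at 14524 and 18542 CPM against 8041 and 11143 CPM at the surface. With the classes matched on steps inside the IZ, a choice made after seeing the data, the surface change of Plac8 was -0.06. The cardiomyocyte share at 5 dpi was then higher at the surface, at 1.12% and 1.84% against 0.508% and 1.003%. The part of these differences in the Plac8 levels was not tested. Ccr2 had no common order, with its highest level at 2 steps, at 3 to 4 steps and at 1 step in the 3 sections. In the control section, where surface spots were taken in the same way, Ly6c2 had 2 UMIs and Plac8 had 0 in 195 surface spots.

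**Figure D4:**
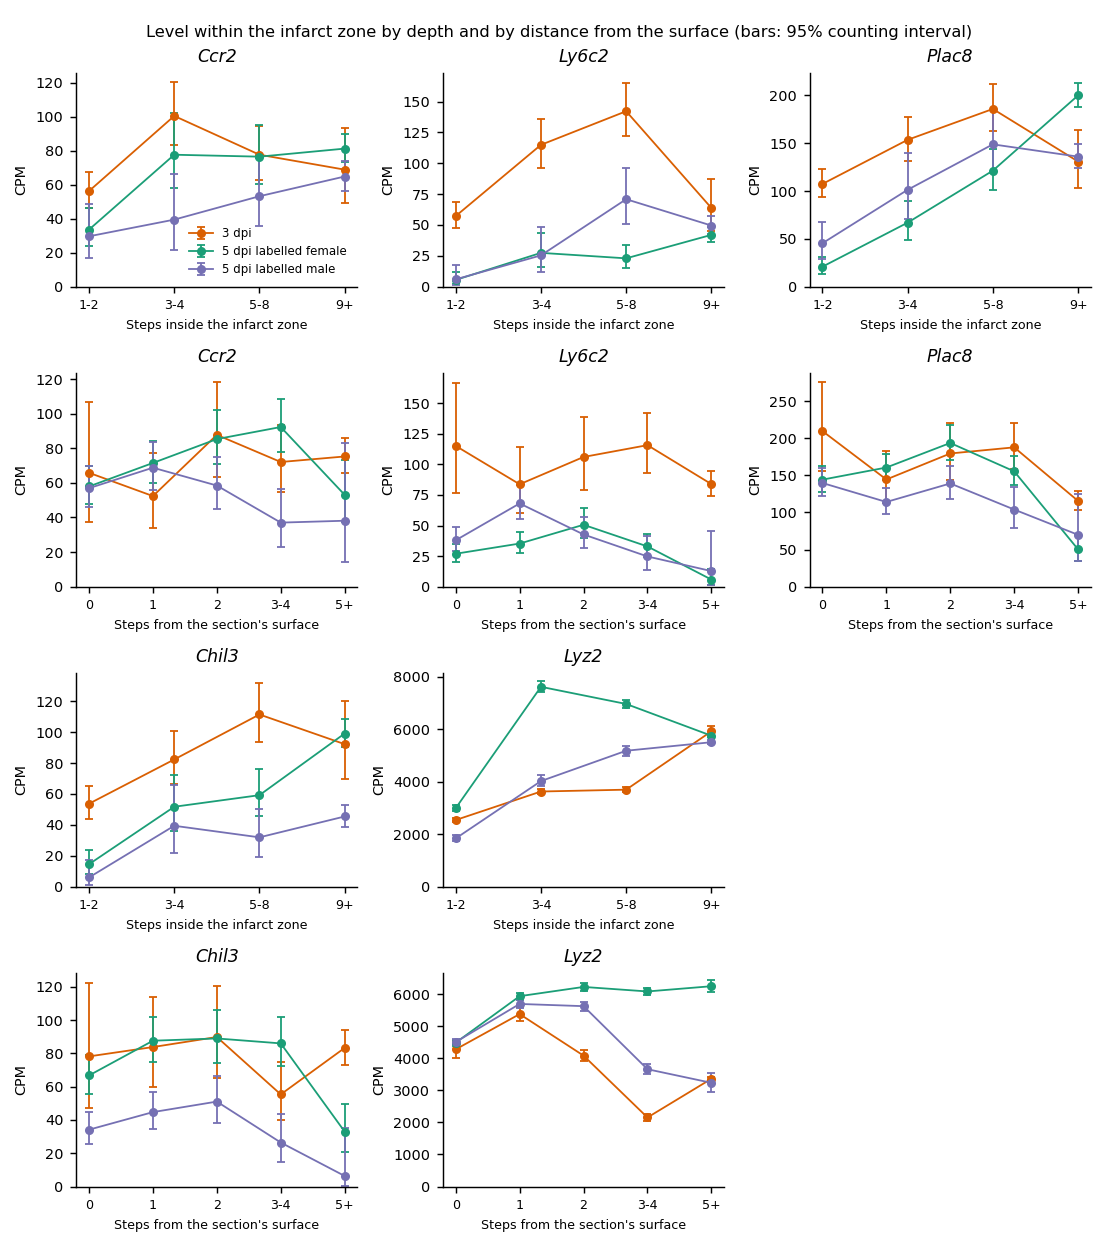
Level of each gene in CPM in infarct zone spots by steps inside the zone and by steps from the section's surface, for the 3 infarcted sections, with 95% counting intervals. At 3 dpi Ly6c2 climbs to 142 CPM 5 to 8 steps inside and is at 63.8 CPM in the deepest spots, while Ccr2 stays between 52.4 and 100 CPM in the same section.

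Both 5 dpi sections enclose a space without marked spots, taken here as the cavity. In the male-labelled section this space holds unmarked spots with RNA, so its cavity face borders on captured RNA. Surface spots were split by whether they lay nearer to it or to the outside of the section. Plac8 was at 193 CPM in surface spots of the outer face of both sections and at 100.0 and 90.2 CPM in those of the cavity face. Chil3 was at 86.1 and 49.5 CPM in the female-labelled section and at 51.5 and 16.5 CPM in the male-labelled section. Both genes were higher at the outer face in 2 of 2 hearts, with counting intervals that did not overlap. Lyz2 was at 5580 and 3455 CPM and at 6667 and 2420 CPM, again higher at the outer face in both. Ly6c2 was at 43.1 and 12.9 CPM and at 42.5 and 33.0 CPM, and the intervals overlapped in the male-labelled section. Ccr2 was the most alike on the faces, at 61.8 and 54.5 CPM and at 64.4 and 50.8 CPM. The 11 other monocyte markers summed to 1523 and 1151 CPM at the outer face against 856 and 587 CPM at the cavity face. The faces also differed in cardiomyocyte markers, at 4067 and 6542 CPM on the outer face against 11747 and 15836 CPM on the cavity face, and in the 8 neutrophil markers, at 357 and 549 CPM against 240 and 100.4 CPM. The part of these differences in the levels of the 5 genes on the faces was not tested. With only outer-face spots counted as surface at 5 dpi, a choice made after seeing the data, Plac8 passed with a log2 fold change of 0.68 (adjusted p by edgeR 0.0085), beside 1.29% of 8915 genes that were higher and 1.74% that were lower, and Ly6c2 had 0.57 (adjusted p by edgeR 0.17). These outer-face spots held 0.407% and 0.654% cardiomyocyte UMIs at 5 dpi against 0.901% and 1.36% in the inner spots, and with the classes matched on that share Plac8 was at 0.61 and did not pass (adjusted p by edgeR 0.33), where 0.413% of 7015 genes were higher.

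Other genes differed between surface and inner spots. Among genes with at least 50 CPM in a class, the largest rises were those of Saa3, an acute phase protein (4.08 ± 0.23), Slpi, an inhibitor of leukocyte proteases (2.97 ± 0.22), and Cxcl5, a chemokine for neutrophils (2.48 ± 0.30). Saa3 was at 98.7, 475 and 259 CPM at the surface against 4.76, 16.2 and 37.2 CPM inside. Cilp (-1.22), Ptn (-1.12) and Itm2a (-1.03) had the largest falls. Of 7 genes of alternative activation 3 were higher, namely Ccl24 (4.49), the scavenger receptor Cd163 (2.48) and Il4ra, the receptor for interleukin 4 and 13 (0.70). Mrc1 had 0.04. Ccl24 and Cd163 had low levels. Ccl24 was at 28.8, 9.31 and 7.59 CPM at the surface against 1.59, 0 and 0 CPM inside. Cd163 was at 12.3, 15.0 and 4.43 CPM against 2.38, 2.63 and 0 CPM. Of 11 other monocyte markers 2 were higher, Hp and Thbs1. With the classes matched on steps inside the zone, a choice made after seeing the data, 9 of the genes called here were called again in the same direction and 50 could still be tested. Saa3 (3.39 ± 0.21), Slpi (2.39 ± 0.26) and Hp (2.02 ± 0.23) were among the 9. Cxcl5 had 1.64 and Il4ra 0.50 and did not pass, Thbs1 had 0.25, and Cilp, Ptn and Itm2a were at -0.01, -0.19 and -0.47. Ccl24 and Cd163 did not pass the filter on low counts there. The cardiomyocyte share was then 1.90%, 1.12% and 1.84% at the surface against 1.75%, 0.508% and 1.003% inside. In the plain surface fit, the lists of CCR2 ligands, lipid-handling macrophages, macrophages and hypoxia had 0 genes past the threshold by edgeR. In list order 0 of 4, 1 of 11, 2 of 8 and 3 of 10 had an unadjusted p under 0.05. Their median log2 fold changes lay between -0.21 and -0.02. Matched on steps inside, Mmp12 of the lipid-handling list passed as lower (-1.53 ± 0.23). Of the CCR2 ligands, Ccl7 (-0.68), Ccl12 (-0.63) and Ccl2 (-0.41) had an unadjusted p under 0.05 by edgeR there, and Ccl8 had -0.14. Spp1 (-0.67), Fabp5 (-0.53), Gpnmb (-0.51) and Trem2 (-0.38) also had such a p, and Acp5 had 0.12. Of these only Mmp12 passed.

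Of 5 neutrophil markers tested, 3 were higher at the surface (Mmp9, S100a8 and S100a9). Csf3r had 0.83 ± 0.28 and did not pass, nor did Mmp8, which went the other way with -1.05 ± 0.51 and was higher at the surface in 1 of 3 sections. The 8 markers summed to 576, 294 and 320 CPM in surface spots against 139, 94.6 and 38.1 CPM in spots 5 or more steps from it. S100a8 had a log2 fold change of 1.25 ± 0.18. With the classes matched on steps inside, S100a8 (0.65 ± 0.22) and S100a9 (0.76 ± 0.22) did not pass, and Mmp9 and Mmp8 could not be tested. The 8 macrophage markers summed to 5611, 6432 and 7398 CPM in surface spots against 5359, 8776 and 6805 CPM, with no common direction. The part of neutrophils in these levels was not tested. Depth per spot also differed at 3 dpi, where surface spots had a median of 1888.5 UMIs outside mitochondrial genes against 5798 in inner spots.

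**Figure D5:**
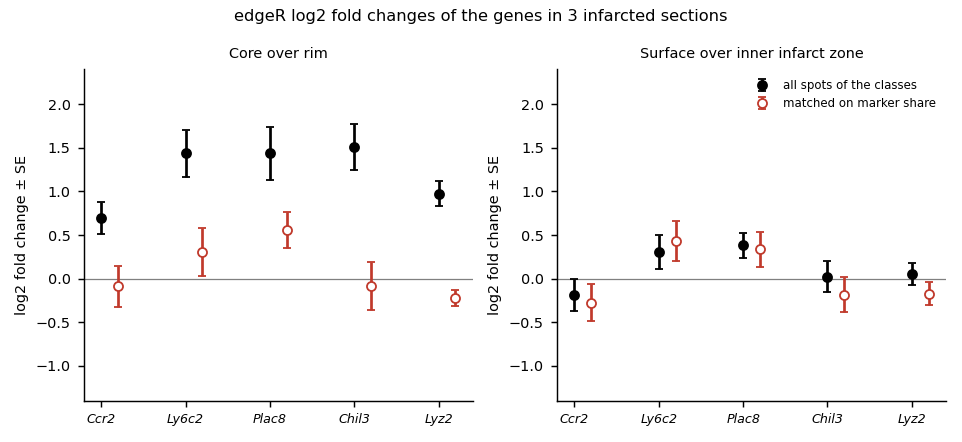
Log2 fold changes (edgeR, with SE as bars) of the genes in 2 comparisons within the infarct zone, for all spots of the classes (filled black) and for spots matched on cardiomyocyte marker share (open red). The genes lie between 0.69 and 1.51 in the core comparison before matching and between -0.22 and 0.56 after it, and between -0.18 and 0.38 in the surface comparison before matching.

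Genes with the most similar pattern were found by correlating log2 CPM over tiles of 36 array positions with at least 12 IZ spots, 30 tiles at 3 dpi, 40 in the female-labelled section and 23 in the male-labelled section. Tiles of a section share its library and its cardiomyocyte gradient, so the values are descriptions. A value below is the lowest of the 3 correlations, over 2635 or 2636 genes compared.

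Plac8 was closest to the chemokine gene Ccl2 (0.70), Cd63 (0.70), Tmsb10 (0.67), Ccl7 (0.63) and Ccl9 (0.62). Lyz2 was closest to Mpeg1 (0.81), a pore-forming protein of macrophages, to Wfdc17 (0.79), Tyrobp (0.78), Psap and Fth1 (0.77 each). Chil3 was closest to the lysosomal genes Lgmn (0.72), Ctsz (0.69), Ctsb (0.69) and Grn (0.68) and to Ftl1 (0.71). Ly6c2 was closest to B2m (0.63), Npc2 (0.62), Grn (0.60), Rnh1 (0.59) and Ctsz (0.57). Ccr2 was closest to Pla2g7 (0.62), Ftl1 (0.57), Psap, Tmsb4x and Lyz2 (0.56 each). Among the 5 genes themselves, Chil3 and Ly6c2 were the pair most alike by this measure, at 0.59, 0.58 and 0.73. Ly6c2 and Lyz2 correlated at 0.25, 0.37 and 0.27, and Ccr2 and Lyz2 at 0.62, 0.56 and 0.58.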

How the data were processed

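The authors deposited raw UMI counts per gene and spot for 4 sections, made with Space Ranger, and they marked spots under tissue by hand. The labels give mm10 as the build, while the study's methods name a different Ensembl reference for these libraries, and the files carry no coordinates, so the build of the counts is not settled. Promoters on GRCm38.p6 were matched by gene symbol alone. Spots with at least 500 UMIs, 250 genes and at most 50% mitochondrial UMIs were kept. A spot was low when its share of cardiomyocyte marker UMIs was under 0.5 times the P90 of its section, and the IZ was made of connected patches of at least 10 low spots. Border zones lay 1 to 4 steps outside it. The 5 genes, the lists and the tests were chosen with earlier results of these data known. A gene chosen with them, and the results that need it, are not reported here.

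For each test, UMIs were summed per section and spot class, which gave 6 sums from 3 hearts, and fitted with a block for the section by the quasi-likelihood test of edgeR 4.0.16 under R 4.3.3 (TMM scaling, default filter, adjusted p under 0.05). Data were simulated for all spots of the classes only, with changes put into genes with a mean of at least 20 UMIs per sum. The fit of core against rim on 10855 genes then recovered 70% of genes changed 2-fold and 100% of those changed 4-fold. The surface test on 10656 genes recovered 65% and 100%, and 4.49% and 5.17% of calls were false. Matched classes, which hold fewer spots, were not simulated, so what they could recover is not known. Core against rim had been set as a test of all spots, and is given as a description, with the matched classes as the test, because it follows the cardiomyocyte share. Genes entered a fold comparison between sections with at least 20 UMIs. Tile correlations used log2 of CPM, with 0.5 added to the UMIs of a gene in a tile before scaling. Named genes were the 5, list genes a sentence needed, the 5 genes most like each of them, and the 3 highest and 3 lowest past the threshold with at least 50 CPM in a class and the same direction in 3 of 3 sections. Alternatives were DESeq2 1.42.0, other scaling, filters, zone limits and matched classes. Python 3.11.15 was used for the rest.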

Additional observations from a re-analysis of the deposited data

Results flagged for a closer look

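The matrix of the male-labelled 5 dpi section holds 623 spots that the authors did not mark as tissue, and 560 of them passed the spot filters. They entered none of the results above. In these spots all 5 genes were above their level in the control section, with counting intervals that did not overlap. Ccr2 was at 46.6 CPM against 1.34 CPM and Ly6c2 at 25.4 CPM against 1.07 CPM. Plac8 was at 139 CPM and Chil3 at 31.7 CPM, against 0.80 CPM each, and Lyz2 at 2841 CPM against 375 CPM.

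The unmarked spots were not alike. A patch of 205 spots along the outer edge held Lyz2 at 5343 CPM, Plac8 at 193 CPM and Ccr2 at 48.6 CPM, and a patch of 174 spots in the cavity held them at 2016, 151 and 52.6 CPM. A patch of 43 spots had Lyz2 at 4293 CPM, and patches of 50 and 34 spots had it at 374 and 494 CPM. Ly6c2 was at 15.1 CPM in the outer patch and 31.7 CPM in the patch in the cavity. The 4 hemoglobin genes summed to 109293 CPM in the patch in the cavity, to 86706 CPM in the patch of 50 spots and to between 6489 and 7691 CPM in the other 3 patches, and the cardiomyocyte markers to 84597 and 89660 CPM in the patches of 50 and 34 spots against 1655 CPM in the outer patch. Their part in the levels was not tested. With these spots outside the marked tissue, the levels given for this section hold for the marked spots alone.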

How the results depend on the processing

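The plain fit of core against rim follows the cardiomyocyte share that chose the genes, so its values under the alternatives describe that choice too, and nothing is read from how many of the 5 genes passed. Ccr2 no longer passed in it without the female-labelled section (0.46), without the male-labelled section (0.63), with DESeq2, without the section block and at the stricter IZ limit (0.39). Plac8 no longer passed with DESeq2, nor did Plac8, Ly6c2 and Chil3 without the block. Of 140 values of single genes in the fits of core against rim and surface against inner IZ, 108 kept their direction and side of the threshold, 11 fell below it, 1 rose above it and 20 reversed, and where a value changed the cause was not tested. The number of genes at least 2-fold higher in the IZ than in the RZ was 5 under all 4 alternatives for levels, but 50 of 200 single levels moved by more than their counting error. RZ levels came to between 0.68 and 1.85 times their value with the stricter IZ limit and to between 0.59 and 0.73 times with mitochondrial UMIs in the total, and that of Ly6c2 in the female-labelled section fell from 1.19 CPM to 0 with all marked spots. IZ levels stayed between 0.90 and 1.20 times theirs.

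The plain fit of core against rim called 1991 genes (3295 at an unadjusted p under 0.05), against 992 with DESeq2, 1027 without the section block, 82 with classes matched on cardiomyocyte share, 1395 of 9006 with classes matched on steps from the surface and 1152 to 2544 with a section left out. The surface test called 67, against 24 with DESeq2, 4 without the block, 20 matched on cardiomyocyte share, 34 with a stricter IZ limit, 11 matched on steps inside the IZ, 270 with the outer face only, 39 with the outer face and matched share, and 40 (without the female-labelled section) to 102 (without the 3 dpi section) with a section left out. The matching on steps from the surface, that of the surface test on steps inside the IZ, and both settings with the outer face were chosen after seeing the data.

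None of the reversed log2 fold changes passed the test. Matched on cardiomyocyte share, core against rim gave -0.085 for Ccr2, -0.083 for Chil3 and -0.22 for Lyz2. In the surface test, Ly6c2 was at -0.21 without the block and -0.042 with inner spots from 2 steps, and Plac8 at -0.057 matched on steps inside the IZ. Chil3 was at -0.17 without the block, -0.18 matched on cardiomyocyte share, -0.035 at the stricter IZ limit, -0.21 with inner spots from 2 steps and -0.46 matched on steps inside. Lyz2 was at -0.0058, -0.17, -0.0032, -0.090 and -0.040 under the same alternatives in that order. With a section left out, the surface values ranged from -0.45 to 0.20 for Ccr2, from -0.10 to 0.23 for Chil3 and from -0.10 to 0.35 for Lyz2.

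No paired analysis was possible by replicate number because the numbers do not mark animals shared between groups, and each section is another heart. The tests already set places of the same heart against each other, with the section as a block. With 1 heart in the control and at 3 dpi, time, heart and library cannot be told apart, and the tests compare places within 3 hearts. Genes with few UMIs in a class, such as Ly6c2 and Chil3 in the IZ rim at 5 dpi, are limited by depth.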
